A study of Mus musculus with 9 samples.

Results

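The genes that make microRNAs and carry out their silencing were followed in medullary thymic epithelial cells (mTEC) of mice. The 10 genes were picked by name for their known role, with no rule on their values but with earlier results of these data known. Each was read from the RefSeq entry of its symbol with the highest summed normalised counts in the Aire pair. They are 10 of the 23003 gene symbols listed in the files of the series. Drosha, Dgcr8 and Xpo5 act in or at the nucleus, Dicer1 and Tarbp2 in the cytoplasm, and Ago1, Ago2, Ago3, Ago4 and Tnrc6a carry out silencing.

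RNA sequencing was done on 9 libraries in 9 groups, with 1 library per group. mTEC are CD45-Ly51- thymic cells of B6 mice aged 4 weeks, sorted by surface MHC class II into mTEChi, the mature cells that express Aire, and mTEClo, which hold their precursors. The Aire pair held mTEChi of mice lacking Aire (labelled Aire-KO) and WT mTEChi, and the sorted pair held WT mTEChi and WT mTEClo from 1 pool of 4 thymi. The other 5 libraries were WT mTEChi at 0 h and, after a block of transcription by actinomycin D at 1 uM, at 1.5, 3, 6 and 12 h. A TruSeq kit served for both pairs and for 0 h, and an amplifying low-input kit for the treated libraries. Against 0 h, an effect of the drug and one of the kit cannot be told apart, so later times are compared with 1.5 h. All libraries came from pooled animals, none has a replicate within its group, and every interval given for a fold or a share is a 95% interval for counting error only. The intervals treat each read as independent. In the pairs both reads of a fragment were counted, and removal of duplicate reads is described only for another comparison, so the intervals may be too narrow.

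MicroRNAs are cut from long transcripts in steps. Drosha, an RNase III enzyme, and its RNA-binding partner Dgcr8 free a hairpin in the nucleus, Xpo5 exports it, and Dicer1 with Tarbp2 cuts it to a short duplex. An Argonaute protein keeps one strand as a guide to target mRNAs, and Tnrc6a, a scaffold of the GW182 family, brings in the enzymes that shorten their poly(A) tails. In mouse thymic epithelium, loss of Dicer1 or Dgcr8 is known to disturb the medulla and its mTEC. In the study, mTEChi and mTEClo were compared to ask how far predicted microRNA targets are repressed in mTEChi, a question that the levels of this machinery stand beside.

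Reads summed over RefSeq entries ranged from 74161592 to 195444567 in the 4 libraries of the pairs. At 0, 1.5, 3, 6 and 12 h they were 91610143, 21124165, 13953047, 11295960 and 1746825. The targeted gene went against its label, since the library labelled Aire-KO held 94481 Aire reads and WT held 26997, and its normalised count was 2.99-fold higher. The entry counts reads of all its exons and may include transcripts that make no protein, so it does not check the deletion. Ins2, an insulin gene known to need Aire in mTEC and chosen here after its values were seen, had 3 reads in that library and 1144 in WT. The 0 h library stood apart from the other untreated WT mTEChi libraries. Over 17855 entries, its log2 CPM (reads scaled by the library's own total) correlated at 0.97 with the 1.5 h library, against 0.85 with WT mTEChi of the Aire pair and 0.87 with mTEChi of the sorted pair, as a description with no test. For 7 of the 10 genes its level was nearer to that at 1.5 h than to either of those 2 libraries. The totals behind CPM cover 30794 entries in the pairs and 25537 in the actinomycin D series. CPM at 0 h and in the pairs are therefore not on exactly the same scale. The 0 h library was more like the 1.5 h library of its own series, made with the other kit, than like those of the kit its label gives. Likeness by a shared series and by a shared kit cannot be told apart here, and the label was not tested further. Since the 0 h library serves below as a replicate of the TruSeq libraries, each test that uses it is also given without it.

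MicroRNAs are encoded inside the machinery itself. The annotation places 2 microRNA genes in exons of Dgcr8, miR-3618 in an untranslated part and Mir1306 in a coding one. The sequence of Mir1306 is shown because the files of the pairs hold an entry for it. Its hairpin (chromosome 16, 18284332 to 18284410, minus strand, mm9) falls within a coding exon of Dgcr8 (chromosome 16, 18254041 to 18289342, minus strand, mm9). Such hairpins in the Dgcr8 transcript are known to be cut by Drosha together with Dgcr8. The sequences are from RefSeq (GRCm38.p6) and each was found once within Dgcr8 in mm9. Capitals mark the 2 mature arms in the hairpin and the seed, bases 2 to 8, in each arm.
Mir1306 hairpin: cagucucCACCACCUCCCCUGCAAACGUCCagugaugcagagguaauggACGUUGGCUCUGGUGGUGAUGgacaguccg
miR-1306-5p: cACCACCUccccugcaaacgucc
miR-1306-3p: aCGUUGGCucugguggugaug
Reads lay wholly within the hairpin in all 4 libraries of the pairs. The library labelled Aire-KO had 60 such reads and WT 48, and mTEChi had 98 and mTEClo 54. As a share of Dgcr8 reads this was 2.63% (2.01 to 3.37) in the library labelled Aire-KO and 2.70% (2.00 to 3.57) in WT mTEChi. It was 2.44% (1.99 to 2.97) in mTEChi and 4.40% (3.32 to 5.70) in mTEClo, the highest share of the 4. The exact intervals of mTEChi and mTEClo of the sorted pair did not overlap, whereas those of the library labelled Aire-KO and of WT mTEChi both reached into that of mTEClo. Dgcr8 reads, the base of these shares, may include reads of Trmt2a, which overlaps Dgcr8 on the opposite strand. In Trmt2a transcripts 17.1% of the 50-base stretches of Dgcr8 are also found. The part of Trmt2a in these shares was not tested. The reads were 50 bases long after trimming and came from libraries of polyadenylated RNA. The mature arms, of 23 and 21 bases, are shorter than these reads and were not measured.

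**Figure D1:**
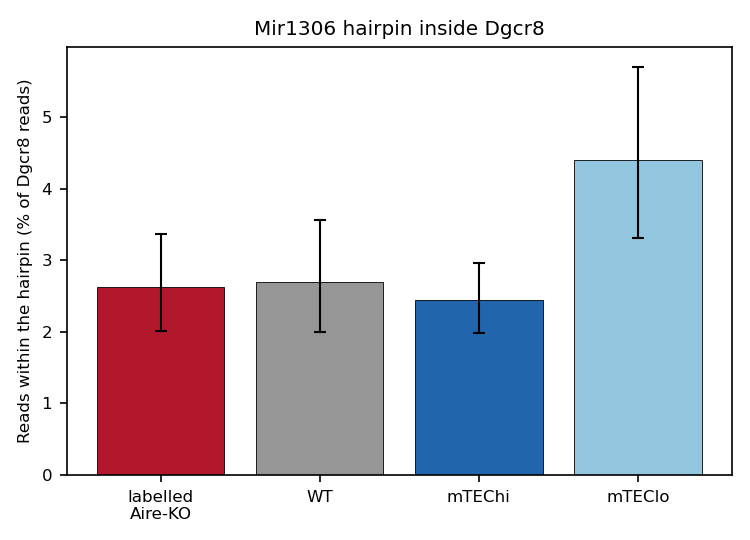
Reads lying wholly within the Mir1306 hairpin as a percentage of the reads of Dgcr8 in the 4 libraries of the pairs, each bar being 1 library with its exact 95% interval for counting error. The bar of mTEClo stands at 4.40%, and the other 3 lie between 2.44% and 2.70%. Reads of Dgcr8 may include some of Trmt2a, which overlaps it on the opposite strand.

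All 10 genes had reads in every library, and their levels were set against each other per length of the entry, in RPKM (CPM divided by the entry's exon length). Averaged over the 9 libraries, Drosha (chromosome 15, 12754570 to 12865045, plus strand, mm9) had the highest level with 11.1 RPKM, followed by Tarbp2 with 9.93, Xpo5 with 8.05 and Tnrc6a with 7.49. Ago2 with 4.63, Ago1 with 4.59 and Dicer1 with 4.42 had nearly the same mean, ahead of Dgcr8 with 3.62. Ago3 with 1.51 and Ago4 with 1.09 RPKM came last. They held the last 2 places in every library except 6 h, where Ago1 stood below Ago3, and Ago4 was the lowest gene in every library except mTEClo, where Ago3 was. Drosha stayed among the 3 highest genes in every library. The places in between changed from library to library, and the means pool both kits and the treated libraries. In WT mTEChi of the Aire pair and of the sorted pair, Dicer1 had 3.04 and 2.95 RPKM, below Dgcr8 with 4.03 and 4.86. Ago1 (6.65 and 6.69) and Ago2 (5.22 and 5.12) stood above both genes there. Ago1 was the highest of the 10 genes in mTEClo, at 9.84 RPKM, and the 8th at 12 h, at 1.05 RPKM. Ago2 was the 3rd in the library labelled Aire-KO and at 12 h and the 8th in mTEClo.

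**Figure D2:**
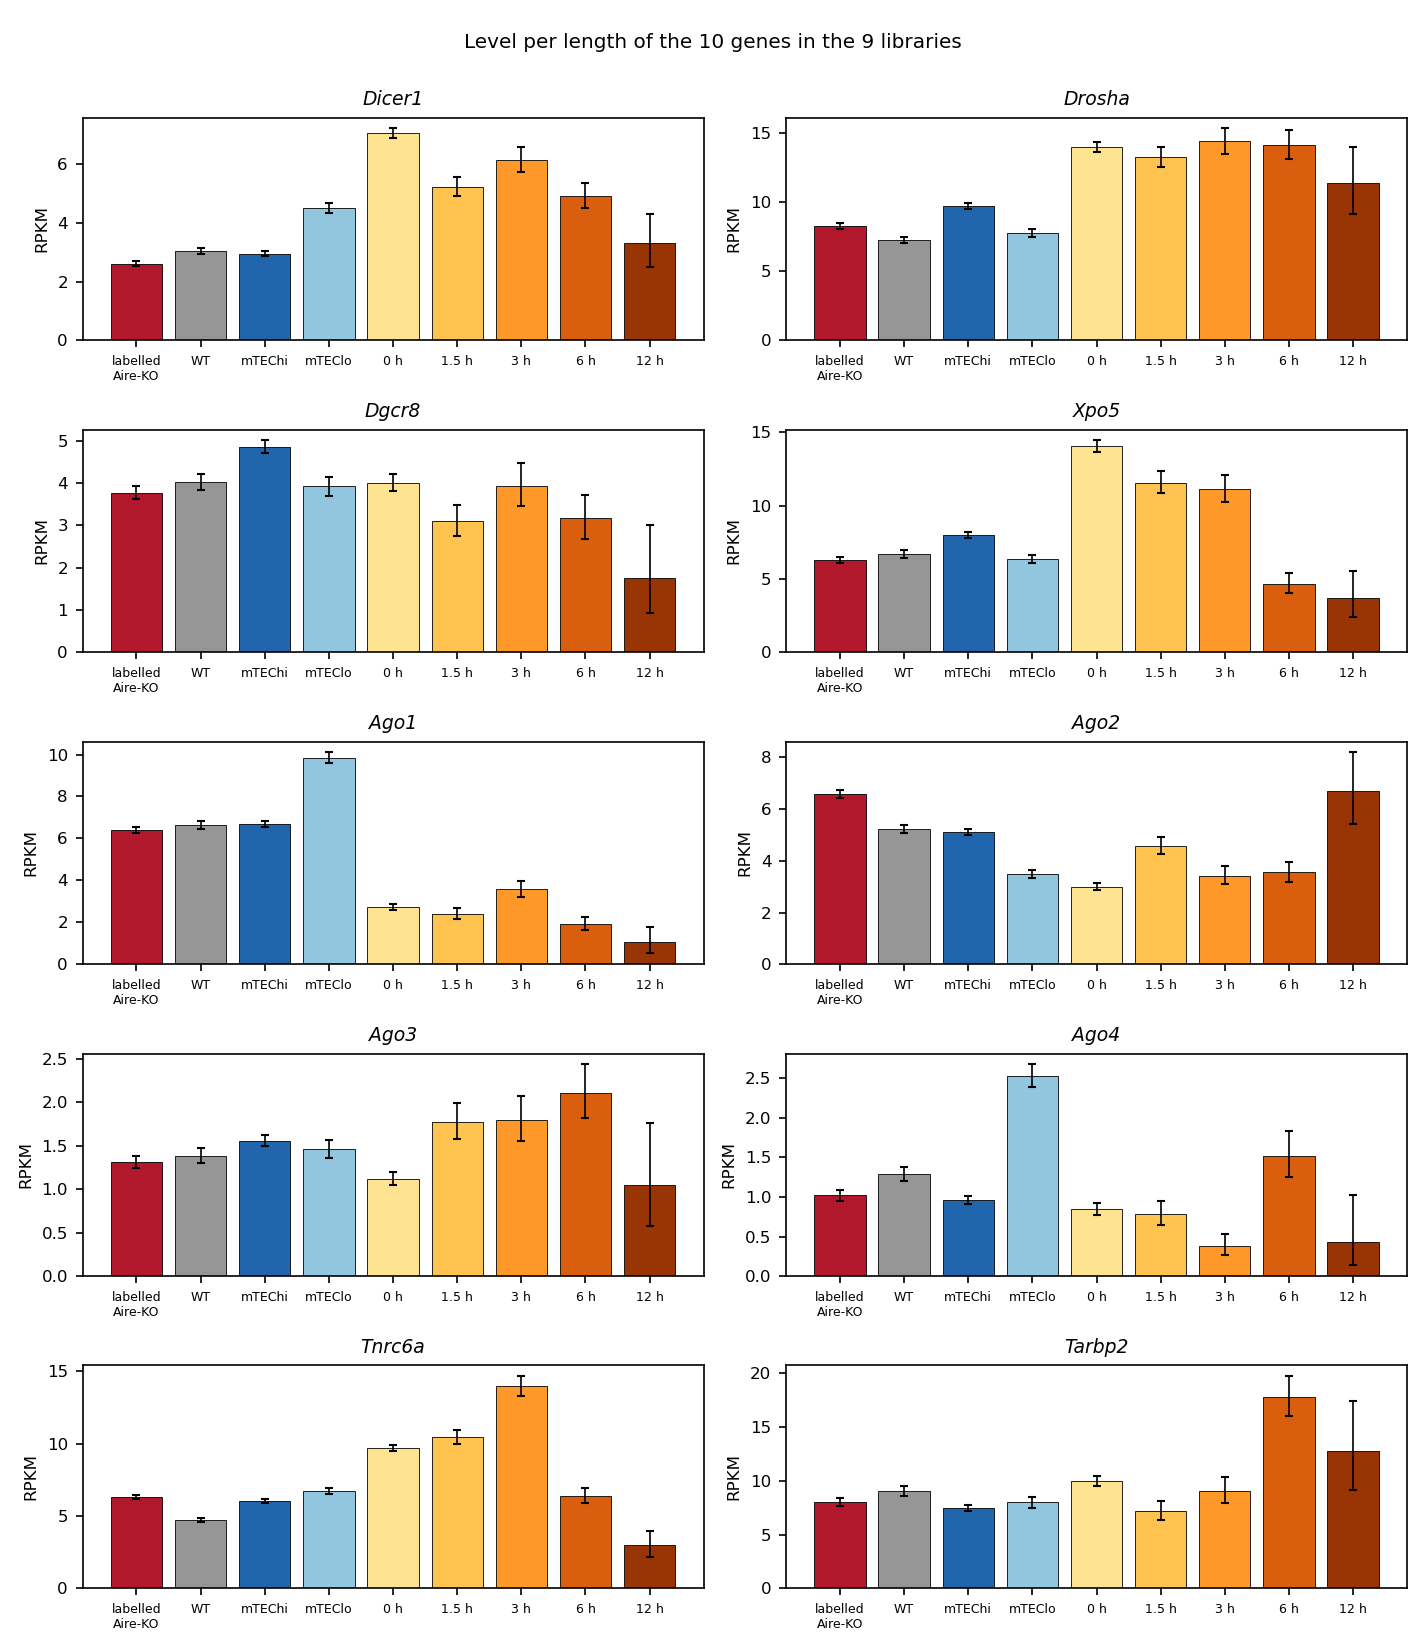
Level per length, in RPKM, of each of the 10 genes in the 9 libraries (each bar 1 library, hours being WT mTEChi in actinomycin D), with exact 95% intervals for counting error. In mTEClo, Ago1 (9.84 RPKM) and Ago4 (2.53 RPKM) stand above all other libraries, and Tnrc6a and Xpo5 are lowest at 12 h.

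In the sorted pair, Ago4, Dicer1 and Ago1 were lower in mTEChi than in mTEClo, and Ago2 was higher. Values of this pair are normalised counts, the reads divided by the size factor of DESeq. Ago4 had 737 normalised counts in mTEChi against 2037 in mTEClo, a fold of 0.362 (0.334 to 0.392), the lowest of the 10 genes. Ago1 had 5552 in mTEChi against 8580 in mTEClo, a fold of 0.647 (0.625 to 0.670). Transcripts of both guide-binding proteins were lower in mTEChi. Ago2, the Argonaute whose slicing of targets is best established, went the other way, with 4830 normalised counts in mTEChi against 3446 in mTEClo, a fold of 1.40 (1.34 to 1.47). Ago3 had 1398 in mTEChi against 1376 in mTEClo, a fold of 1.02 (0.938 to 1.10).

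Among the genes that cut and export the hairpins, Dicer1 stood apart from the nuclear steps. Dicer1 (chromosome 12, 105925952 to 105990162, minus strand, mm9) had 3416 normalised counts in mTEChi against 5471 in mTEClo, a fold of 0.624 (0.598 to 0.652). Drosha, Dgcr8 and Xpo5 were each slightly higher in mTEChi, with folds of 1.19 (1.14 to 1.24), 1.18 (1.11 to 1.26) and 1.197 (1.13 to 1.26). Tarbp2, the partner of Dicer1, had a fold of 0.888 (0.827 to 0.955), and Tnrc6a a fold of 0.854 (0.824 to 0.885).

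Past 1.5-fold, 3 of the 10 genes (Ago4, Dicer1 and Ago1) were lower in mTEChi, where 29.2% of the 21848 symbols tested were. None was higher, where 27.7% of symbols were. Past 2-fold 1 gene, Ago4, was lower, where 21.2% of symbols were, and none higher, where 19.2% were. The median log2 fold of the 10 genes was -0.07, beside 0.01 for all symbols, so as a group they lay near the middle of all genes. With scaling to total reads every log2 fold of this pair was higher by 0.07, Ago1 was then just short of 1.5-fold, and no gene changed direction. As RNA came from whole sorted populations, fewer cells that express a gene and less of its RNA per cell cannot be told apart.

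**Figure D3:**
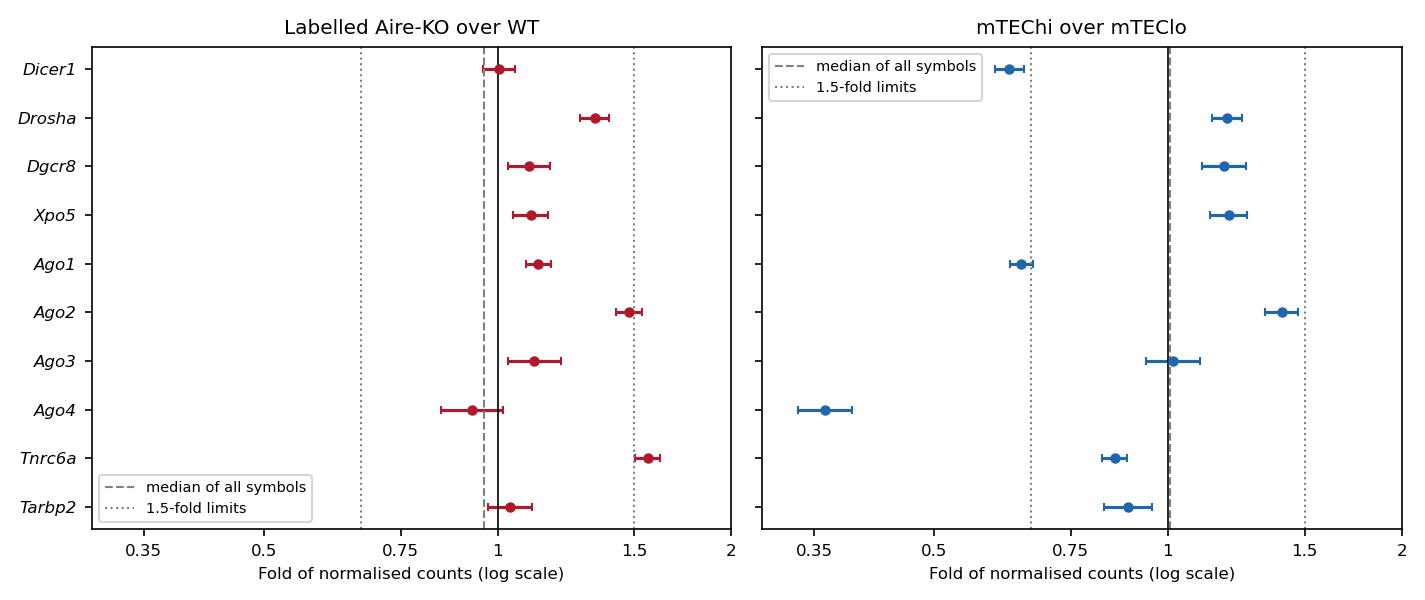
Fold of normalised counts (log axis) of each gene in the library labelled Aire-KO over WT mTEChi and in mTEChi over mTEClo, with exact 95% intervals for counting error; each point compares 1 library with 1. On the right, Ago4 (0.362), Dicer1 (0.624) and Ago1 (0.647) lie left of the lower 1.5-fold limit, and on the left Tnrc6a (1.56) lies right of the upper one.

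The sorted populations also differed in the markers of other cells. The 7 mTEClo markers, all with reads, summed to 1387 CPM in mTEChi against 9106 in mTEClo, and the 10 mTEChi markers, Aire included, to 22667 CPM in mTEChi against 7092 in mTEClo. The 8 fibroblast markers summed to 127 CPM in mTEChi against 955 in mTEClo, and the 7 endothelial markers to 37.2 CPM in mTEChi against 249 in mTEClo. Of the 8 fibroblast markers, 1 was higher in mTEChi. The dendritic cell and macrophage markers summed higher in mTEChi, with 551 CPM against 82.8 in mTEClo, though 3 of the 11 were lower there. Markers of cortical epithelium (506 CPM in mTEChi against 126 in mTEClo, with 1 of 6 lower) and of B cells (33.4 against 16.3) also summed higher in mTEChi. No marker of these lists was at 0 in either library. Their part in the Argonaute and Dicer1 differences was not tested.

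The 3 untreated WT mTEChi libraries (Aire pair, sorted pair and 0 h) gave a spread against which the single mTEClo library could be set. Ago4 had 8.42, 6.27 and 5.52 CPM in the WT mTEChi libraries of the Aire pair, the sorted pair and 0 h, against 16.5 CPM in mTEClo. Every mTEChi library lay below mTEClo. Ago1 had 46.9, 47.3 and 19.3 CPM in the same mTEChi libraries, against 69.5 CPM in mTEClo, and again did not overlap. Dicer1 had 29.9, 29.1 and 69.4 CPM, against 44.3 CPM in mTEClo, so the 0 h library lay above mTEClo and the other 2 below it. Ago2 had 41.9, 41.1 and 24.1 CPM, against 27.9 CPM in mTEClo, with the 0 h library below it. For 4 of the 10 genes (Ago4, Ago1, Dgcr8 and Xpo5) mTEClo lay outside the range of the 3 mTEChi libraries, where 64.7% of 19193 symbols did, so the 10 genes lay outside it no more often than symbols at large. Ranges that include 0 h carry the difference in CPM totals given above.

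In edgeR's quasi-likelihood test of these 3 libraries against mTEClo, 0 of the 10 genes were called at an adjusted p (Benjamini-Hochberg) under 0.05, where 3.37% of 24687 entries were. At an unadjusted p under 0.05 only Ago4 passed, where 20% of entries did, and DESeq2 called none of the 10 genes. Ago4 had the smallest adjusted p, with a log2 fold of -1.42 ± 0.50 (SE) and an adjusted p of 0.162, and it was lower in 3 of 3 mTEChi libraries. Over the alternatives its adjusted p ranged from 0.101 to 0.431. Ago1 had a log2 fold of -0.99 ± 0.62 (adjusted p = 0.460 in edgeR). Without the 0 h library, when edgeR called 9.74% of 28590 entries and again none of the 10 genes, the log2 folds were -1.21 for Ago4 (adjusted p = 0.112), -0.61 for Ago1 and -0.64 for Dicer1, against -0.23 for Dicer1 with it. Without mTEChi of the sorted pair edgeR called no entry at all, with 3473 at an unadjusted p under 0.05. The test treats these libraries of separate experiments as replicates and assumes that the lone mTEClo library varies as they do.

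Ago1, Ago3 and Ago4 are neighbours on chromosome 4 in mm9, all on the minus strand, Ago3 at 126008948 to 126106800, Ago1 at 126112256 to 126145878 and Ago4 at 126166785 to 126210716. Ago2 lies on chromosome 15 (72932055 to 73015377, minus strand). Of the 3 neighbours, Ago4 and Ago1 were past 1.5-fold lower in mTEChi of the sorted pair and Ago3 was not, so the 250 bases before the start of each are shown side by side. They are from RefSeq (GRCm38.p6, minus strand, given 5′ to 3′), at chr4:126533459-126533708 for Ago4, chr4:126468632-126468881 for Ago1, the upstream one of the 2 windows listed for it, and chr4:126429543-126429792 for Ago3. Capitals mark GGGCGG and CCAAT on either strand.
Ago4 promoter: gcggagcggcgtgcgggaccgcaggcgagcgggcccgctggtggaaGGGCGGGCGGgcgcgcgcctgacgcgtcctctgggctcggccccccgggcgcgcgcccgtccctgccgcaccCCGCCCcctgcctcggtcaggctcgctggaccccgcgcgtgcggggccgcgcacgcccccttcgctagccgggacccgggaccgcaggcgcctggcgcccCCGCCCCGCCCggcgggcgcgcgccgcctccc
Ago1 promoter: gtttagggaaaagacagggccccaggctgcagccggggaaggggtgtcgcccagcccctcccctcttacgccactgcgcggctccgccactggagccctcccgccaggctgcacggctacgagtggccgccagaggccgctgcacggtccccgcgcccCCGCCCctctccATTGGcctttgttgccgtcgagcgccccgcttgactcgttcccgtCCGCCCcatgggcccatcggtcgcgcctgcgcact
Ago3 promoter: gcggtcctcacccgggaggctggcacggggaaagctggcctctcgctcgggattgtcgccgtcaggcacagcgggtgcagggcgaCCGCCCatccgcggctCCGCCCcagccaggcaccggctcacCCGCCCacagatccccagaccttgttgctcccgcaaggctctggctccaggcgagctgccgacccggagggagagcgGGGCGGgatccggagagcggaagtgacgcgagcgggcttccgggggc
GGGCGG occurs 5 times in the window of Ago4, overlapping matches included, 2 times in that of Ago1 and 4 times in that of Ago3. Over all 32851 promoters of the same length, 32.7% hold GGGCGG and 33.8% hold CCAAT. CG pairs number 46 in the window of Ago4, 26 in that of Ago1 (28 in its second window, at chr4:126468584-126468833) and 27 in that of Ago3, beside a median of 6 over all promoters. Of the 10 genes, 9 had a promoter in the table. Among these, 7 held GGGCGG, 5 held CCAAT and none held TATAAA, which 12.4% of all promoters hold. These matches describe the letters of the windows and nothing about binding.

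The makeup of the Argonaute pool was read as the share of each gene in the summed level of Ago1 to Ago4 per length, which does not depend on how libraries are scaled. Ago2 made up 35.7% (35.1 to 36.4) of this sum in mTEChi against 20.1% (19.3 to 20.9) in mTEClo of the sorted pair. It made up 35.9% (35.02 to 36.8) in WT mTEChi of the Aire pair and 39.0% (37.7 to 40.3) at 0 h, so all 3 untreated WT mTEChi libraries lay above mTEClo. Ago1 made up 46.7% in mTEChi against 56.9% in mTEClo, and Ago4 6.71% in mTEChi against 14.6% in mTEClo. Ago3 had 10.9% in mTEChi against 8.44% in mTEClo. The shares were not tested, as there is 1 mTEClo library.

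The 0 h library, although the highest in Ago2 share of the untreated WT libraries, had the lowest Ago2 level of the 3. Its Ago1 share was 35.5%, the lowest of the 3, and its Ago3 share 14.6% and Ago4 share 10.99%, the highest of the 3. In the library labelled Aire-KO, Ago2 made up 42.9% (42.2 to 43.7) against 35.9% in WT mTEChi of its pair, and Ago1 41.8% against 45.7%. In the library labelled Aire-KO the intervals of Ago2 and Ago1 (41.0 to 42.6) overlapped, so neither led beyond counting error. Among the untreated WT mTEChi libraries Ago1 had the larger share in both pairs and Ago2 at 0 h. Ago1 shares 125 of its 7380 stretches of 50 bases with Ago2 or Ago3, or 1.69%, so few reads could be split between these genes.

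**Figure D4:**
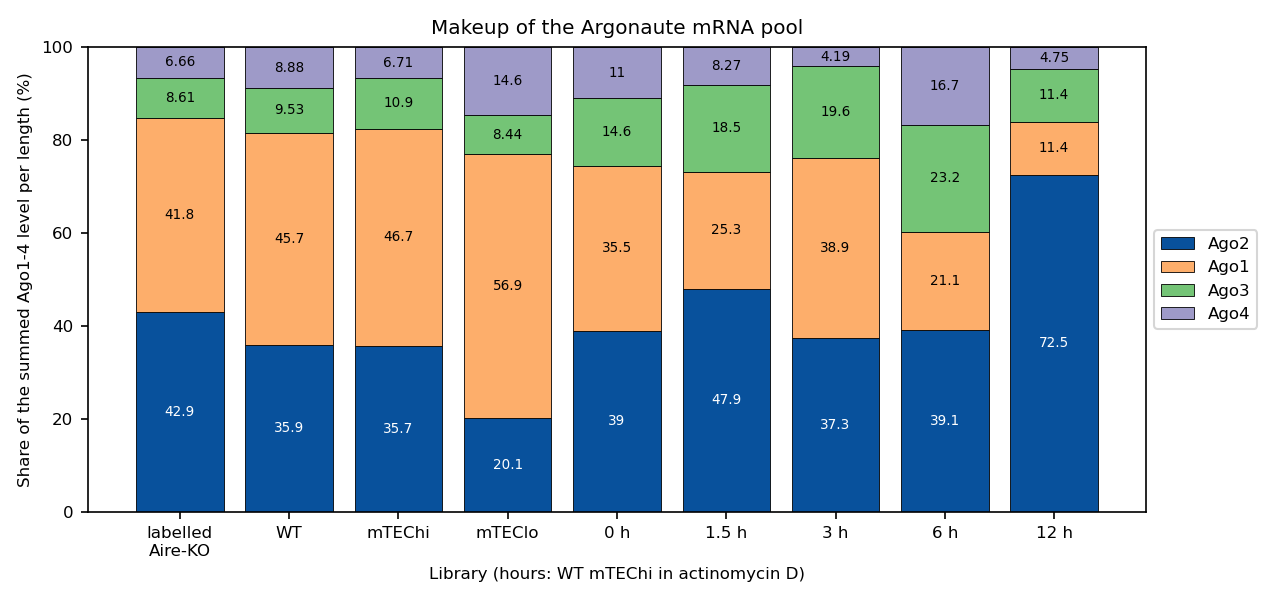
Share of each Argonaute gene in the summed Ago1 to Ago4 level per length (%), each stacked bar being 1 library. Ago2 holds 20.1% in mTEClo and 35.7% to 39.0% in the 3 untreated WT mTEChi libraries, and 72.5% at 12 h of actinomycin D.

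In the Aire pair the folds of the 10 genes ran from 0.926 to 1.56, with Tnrc6a and Ago2 at the upper end. Tnrc6a (chromosome 7, 130267770 to 130338802, plus strand, mm9) had 7091 normalised counts with the label Aire-KO and 4543 in WT, a fold of 1.56 (1.503 to 1.62). Ago2 had 6978 with the label Aire-KO and 4727 in WT, a fold of 1.48 (1.42 to 1.53), and Drosha 4994 with that label and 3747 in WT, a fold of 1.33 (1.28 to 1.39). Ago1, Ago3, Xpo5 and Dgcr8 had folds of 1.13, 1.11, 1.10 and 1.10, and Tarbp2 and Dicer1 folds of 1.04 (0.973 to 1.11) and 1.00 (0.957 to 1.05). Ago4 alone was lower, with a fold of 0.926 (0.844 to 1.02), an interval that includes 1.

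Past 1.5-fold, 1 of the 10 genes was higher in the library labelled Aire-KO, where 17.8% of 19764 symbols were, and none was lower, where 35.1% were. Past 2-fold none was higher or lower, where 7.22% and 29% of symbols were. The median log2 fold of the 10 genes was 0.15, beside -0.06 for all symbols. The scaling matters here, since with total reads every log2 fold of the pair was lower by 0.23. Of the 9 genes above WT only Tnrc6a, Ago2 and Drosha then stayed above it, the other 6 lay below it, and none was past 1.5-fold. The share of all symbols past 1.5-fold was not taken with total reads. The markers of other cells differed here too. The library labelled Aire-KO had 353 CPM of the 11 dendritic cell and macrophage markers, with Cd209a at 0, and WT had 669 CPM. Endothelial markers summed to 25.0 CPM with the label Aire-KO and 58.0 in WT, and fibroblast markers to 191 and 131, though 3 of the 8 fibroblast markers were below WT. Thymocyte markers summed to 27.6 CPM with the label Aire-KO and 46.0 in WT, though 1 of the 9 was above WT. Their part in the folds was not tested. Because Aire itself went against the label, these directions are those of the library labelled Aire-KO.

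Against the 3 untreated WT mTEChi libraries, the library labelled Aire-KO was outside the range for 4 of the 10 genes (Dicer1, Dgcr8, Xpo5 and Ago2), where 59.2% of 17648 symbols were. Tnrc6a had 53.6 CPM in it, against 40.3, 51.2 and 82.2 CPM in the WT libraries of the Aire pair, the sorted pair and 0 h, and lay within their range. Ago2 had 52.8 CPM, against 41.9, 41.1 and 24.1 CPM in the same WT libraries, and lay above all 3. Dicer1 had 25.6 CPM, against 29.9, 29.1 and 69.4 CPM, and lay below all 3. Dgcr8 with 15.95 CPM and Xpo5 with 23.4 CPM lay just below the lowest WT values of 16.9 and 24.8 CPM. The 16.9 CPM of Dgcr8 is the 0 h value, whose total covers fewer entries, so so narrow a gap cannot be relied on. In edgeR 0 of the 10 genes were called at an adjusted p under 0.05, where 8.73% of 23916 entries were. None passed at an unadjusted p under 0.05, where 21.2% of entries did, and DESeq2 called none of the 10 genes. Ago2 had a log2 fold of 0.82 ± 0.53 (SE, adjusted p = 0.506, and 0.369 to 0.655 over the alternatives). Without the 0 h library it was 0.55, and edgeR then called 11.5% of 27609 entries and none of the 10 genes. The 3 WT libraries themselves differed by 1.22-fold (Dgcr8) to 2.45-fold (Ago1) between the lowest and the highest, with a median of 1.83 over the 10 genes. Between the WT libraries of both pairs alone, the ratio of Aire pair to sorted pair ran from 0.748 to 1.34.

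Under actinomycin D, Tnrc6a and Xpo5 transcripts had by 12 h the lowest levels of the 10 genes relative to 1.5 h, whereas those of Tarbp2 and Ago2 took a larger part of what remained. CPM gives the share of a gene in its library, so a higher CPM after transcription is blocked gives no measure of the amount of RNA per cell. Tnrc6a had 82.2, 88.7, 119, 54.4 and 25.2 CPM at 0, 1.5, 3, 6 and 12 h, and its level at 12 h was 0.284 (0.206 to 0.383) of that at 1.5 h. Xpo5 (chromosome 17, 46339804 to 46379248, plus strand, mm9) had 52.1, 42.9, 41.3, 17.4 and 13.7 CPM at these times, a fold of 0.320 (0.204 to 0.480) at 12 h over 1.5 h. Both were lower at 6 h and 12 h than at any earlier time. Their 12 h values rest on few reads, 44 for Tnrc6a and 24 for Xpo5.

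Tarbp2 (chromosome 15, 102348623 to 102354107, plus strand, mm9) had 17.9, 12.9, 16.3, 31.9 and 22.9 CPM at 0, 1.5, 3, 6 and 12 h, a fold of 1.78 (1.24 to 2.49) at 12 h over 1.5 h. The 12 h value of Tarbp2 came from 40 reads. Ago2 had 24.1, 36.8, 27.5, 28.6 and 53.8 CPM at the same times, a fold of 1.46 (1.17 to 1.81). Its higher value rests on the 12 h library, which is the shallowest and gave 94 reads, since at 3 h and 6 h Ago2 was below its level at 1.5 h. Drosha kept the steadiest share, with 60.6, 65.9, 64.8 and 52.1 CPM at 1.5, 3, 6 and 12 h.

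The other Argonautes and Dicer1 were lower at 12 h than at 1.5 h, also on few reads, 57 for Dicer1. Ago1 had 17.1, 25.2, 13.5 and 7.44 CPM at 1.5, 3, 6 and 12 h, the last from 13 reads, and a fold of 0.435 (0.230 to 0.754). Dicer1 had a fold of 0.633 (0.476 to 0.826) and Dgcr8, also with 13 reads, one of 0.568 (0.298 to 0.987). Ago3 with 14 reads and Ago4 with 5 had folds of 0.592 (0.320 to 1.01) and 0.555 (0.177 to 1.33), whose intervals include 1. Ago4 followed no steady course, with 5.16, 2.51, 9.92 and 2.86 CPM at 1.5, 3, 6 and 12 h. Ago2 accordingly made up 47.9%, 37.3%, 39.1% and 72.5% (63.6 to 80.3) of the Argonaute level at these times.

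At 12 h over 1.5 h, 7 of the 10 genes were past 1.5-fold lower, where 45.6% of 18460 symbols were, and 1 was past 1.5-fold higher, where 19.8% were. The median log2 change of the 10 genes was -0.79, beside -0.42 for all symbols. At 6 h, 2 genes (Xpo5 and Tnrc6a) were past 1.5-fold lower, where 44.9% of symbols were, and 2 (Tarbp2 and Ago4) higher, where 21.3% were, and the median was -0.03, beside -0.38 for all symbols. At 3 h only Ago4 was past 1.5-fold lower, where 25.6% of symbols were, and none higher, where 17.5% were. Markers of other cells changed in share as well. The dendritic cell and macrophage list summed to 372, 370, 575 and 765 CPM at 1.5, 3, 6 and 12 h, with up to 3 of its 11 markers at 0 from 3 h on. The thymocyte list summed to 43.6, 38.1, 98.4 and 157 CPM at these times, with reads for 5 of its 9 markers at 6 h. Fibroblast, endothelial and B cell markers summed lower at 12 h than at 1.5 h. The part of these cells was not tested. The groups are single libraries and the 6 h and 12 h values do not lie on one course for every gene.

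**Figure D5:**
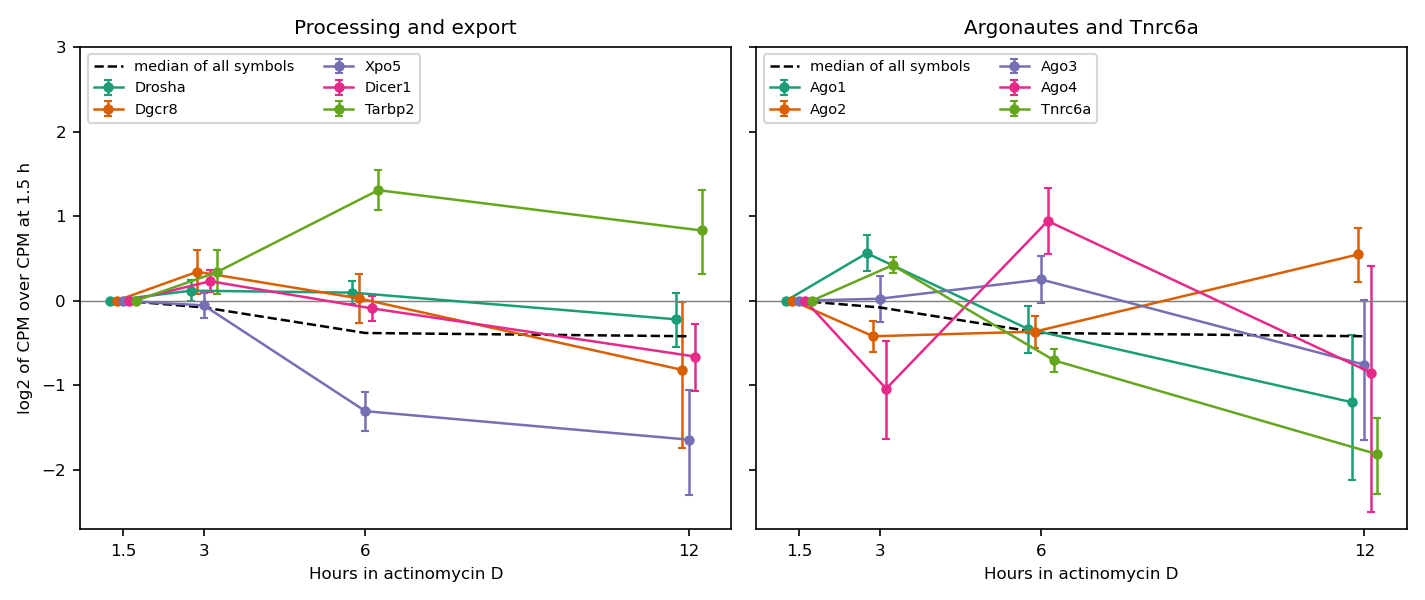
Log2 of the CPM at 3, 6 and 12 h of actinomycin D over that at 1.5 h for the 5 genes of processing and export (left) and for the Argonautes and Tnrc6a (right), with exact 95% intervals for counting error and the median of all symbols as a broken line. Tnrc6a and Xpo5 lie below that line at 6 h and 12 h, and Tarbp2 and, at 12 h, Ago2 lie above it.

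A slope over the 4 treated times was fitted with edgeR, and 0 of the 10 genes were called, as were 0% of 20652 entries. At an unadjusted p under 0.05 it gave 2 of the 10 genes, where 9.18% of entries passed (1896). The 2 genes were Tnrc6a, with -0.20 ± 0.05 on the log2 scale per hour (SE, adjusted p = 0.331), and Xpo5, with -0.16 ± 0.06 (adjusted p = 0.469). Over the edgeR alternatives the adjusted p ran from 0.00447 to 0.9999 for Tnrc6a and from 0.0492 to 0.9999 for Xpo5. DESeq2, which gave an adjusted p to 3836 of the entries and to 2 of the 10 genes, called 268 entries that rose and 147 that fell, among the second Tnrc6a (adjusted p = 0.0244). Without the 6 h library edgeR called, of 20452 entries tested, 718 that rose and 1155 that fell, Tnrc6a (adjusted p = 0.00447) and Xpo5 (adjusted p = 0.0492) among the second. Without the 12 h library it called, of 20338 entries tested, 87 that rose and 518 that fell, and none of the 10 genes. The slope of Ago2 was 0.07 with all 4 libraries and -0.08 without the 12 h library.

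The genes that act around this core were read from 4 lists, beside the same shares of all symbols past 1.5-fold as above: 17.8% higher and 35.1% lower in the library labelled Aire-KO, and 27.7% higher and 29.2% lower in mTEChi. These shares are for normalised counts. None was taken with scaling to total reads, so counts with that scaling have no share of all symbols beside them. Nuclear processing held 18 genes that help or regulate Drosha and its substrates, and past 1.5-fold 5 of them were higher and 4 lower in the library labelled Aire-KO than in WT. With scaling to total reads 3 were higher and 4 lower. In mTEChi 4 were higher and 2 lower than in mTEClo, with either scaling. Its most abundant genes were the RNA helicase Ddx5, with folds of 1.14 in the Aire pair and 0.994 in the sorted pair, and Hnrnpa2b1, with 1.29 and 1.23, and with scaling to total reads Ddx5 alone of these lay below WT in the Aire pair. The genes past 1.5-fold against the median of the list were, in the Aire pair, Zc3h12a (0.438), an RNase that cuts hairpin precursors and cytokine mRNAs, Lin28a (0.167), Lin28b (0.547) and the editing enzyme Adarb1 (0.634). Lin28a had only 0.126 CPM with the label Aire-KO and 0.882 in WT, and Lin28b 1.04 and 2.23. In the sorted pair the genes past 1.5-fold against the median were Adar (0.397), which edits double-stranded RNA, and again Zc3h12a (0.547).

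The loading list held 13 chaperones and partners that help Argonaute take up its guide. All 13 were above WT in the library labelled Aire-KO and 5 were past 1.5-fold, at a median log2 fold of 0.41, whereas with scaling to total reads Dnaja2, Tsnax and Ipo8 lay below WT and none was past 1.5-fold. The chaperone Hspa8 had a fold of 1.54 there and Hsp90ab1 one just past the limit, and in the sorted pair they had 1.28 and 1.14. In mTEChi 1 gene of this list was higher than in mTEClo and 1, Fkbp4 (0.650), was lower, fewer in each direction than the shares of all symbols would give for 13 genes. With total reads Fkbp4 was no longer past the limit.

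The silencing list held 17 partners of Argonaute and Tnrc6a, of which 2 were past 1.5-fold higher and 2 lower in the library labelled Aire-KO, and 3 higher and 4 lower in mTEChi. With total reads 1 was higher and 2 lower in the Aire pair, and 4 higher and 4 lower in the sorted pair. Pabpc1, the poly(A)-binding protein that GW182 proteins contact, had folds of 1.94 in the Aire pair and 2.35 in the sorted pair, and Cnot1, the scaffold of the deadenylase complex, 1.18 and 1.38. Tnrc6b and Tnrc6c, the paralogs of Tnrc6a, had folds of 1.46 and 1.42 in the Aire pair and of 0.755 and 0.889 in the sorted pair, on the same side of 1 as Tnrc6a in both. With scaling to total reads these genes stayed above WT in the Aire pair. Against the median of the list were the helicase Mov10 (0.580 in the Aire pair and 0.331 in the sorted pair) and Trim71 (0.383 and 0.621, at under 1 CPM in each library of the pairs). In the sorted pair the LIM proteins Ajuba (0.167) and Wtip (0.148) were too.

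Of the 10 genes of miRNA tailing and turnover, 1 was past 1.5-fold higher and none lower in the library labelled Aire-KO, and none was higher and 3 lower in mTEChi, a share of the list close to the 29.2% of all symbols. The gene higher in the Aire pair, Eri1 (1.52), was not past the limit with total reads. The most abundant were Tut7, a terminal uridylyltransferase, with folds of 1.33 in the Aire pair and 0.969 in the sorted pair, and Zswim8, known for target-directed decay of microRNAs, with 0.963 and 0.611. The other genes past 1.5-fold lower in mTEChi were Tut4 (0.578), the second uridylyltransferase, and the exonuclease Xrn1 (0.619). In both pairs, the median log2 folds of the lists for nuclear processing, loading, silencing and tailing were 0.33, 0.41, 0.31 and 0.43 in the Aire pair and 0.31, 0.15, 0.07 and 0.01 in the sorted pair, beside -0.06 and 0.01 for all symbols.

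Dgcr8 needs a reservation. Its exons share 992 bases with other genes, Trmt2a on the opposite strand among them, and 17.1% of its stretches of 50 bases are also found in Trmt2a transcripts. The kits of the pairs do not mark strand, so reads there cannot be assigned to one gene. Ago3 shared 11 exonic bases with another gene, and the other 8 genes shared none.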

How the data were processed

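The authors filtered reads with CASAVA and trimmed the paired-end reads of the pairs to 50 bases, pooling both ends as single reads. They aligned reads to mm9 with Bowtie 1.0.0 and counted with bedtools those lying wholly within RefSeq exons. The deposited values of the actinomycin D series are counts per entry. For the pairs the deposited signal is counts that the authors divided by DESeq size factors. All of these values (100%) were whole multiples of 1 step per library within 0.1 reads, so whole reads were recovered. The exon length, another deposited column, gave levels per length. The authors' fold changes, p-values and per-length values were not used. Column names of the Aire pair and of the time series hold no sample, and their groups were taken from the mapping supplied with the series.

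The main results were folds of single libraries with exact 95% intervals, which cover counting error only, over symbols with at least 10 normalised counts in a pair or 10 reads in the time series, where 0.5 reads were added for log2 values. Whole reads were tested with edgeR 4.0.16 and DESeq2 1.42.0 in R 4.3.3. The edgeR fits, but not those of DESeq2, were first checked on simulated data. These had a spread set in advance and changes larger than those of the 10 genes, so power for folds like those seen here was not checked. The edgeR test assumes the lone library varies like the 3 WT libraries. Other steps used Python 3.11.15. Positions are from gencode vM1 and promoters and microRNAs from RefSeq (GRCm38.p6). All 10 genes are named. Of each other list the 2 most abundant genes and those past 1.5-fold against the list's median are named, besides Tnrc6b, Tnrc6c and Eri1, and Dnaja2, Tsnax and Ipo8 with total reads, chosen after their values were seen. Members and lists were chosen with earlier results of these data known.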

Additional observations from a re-analysis of the deposited data

How the results depend on the processing

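In the Aire pair the number of genes past 1.5-fold, 1 in the main reading, was 0 with scaling to total reads, 2 with folds centred on the median of all symbols and 0 with a limit of 2-fold. Shares of all symbols were not taken for total reads or for centred folds. The median log2 fold, 0.15, was -0.081 with total reads. In the sorted pair 3 genes were past 1.5-fold and 1 (Ago4) past 2-fold, and total reads left 2. In the test of slopes the count of 0 was 1 with DESeq2 and 0 to 2 when a library was left out, the 2 being without the 6 h library. Leaving out any library left the counts of both tests against the untreated WT libraries at 0, with smallest adjusted p from 0.369 to 0.527 for the Aire-KO label and 0.112 to 0.431 for mTEClo. Over all entries, edgeR called 21 higher and 2066 lower for the Aire-KO label, and DESeq2 81 and 3738. In mTEChi over mTEClo edgeR called 475 higher and 357 lower and DESeq2 1840 and 979, and edgeR called 0 without mTEChi of the sorted pair and 1780 and 1005 without the 0 h library. The median log2 change at 12 h, -0.79, was -0.67 with TMM scaling and -0.78 with 2 reads added, and at 6 h it was -0.03. Without division by length the Ago2 share was 46.0% for the Aire-KO label and 38.9% in WT, 38.6% in mTEChi and 22.3% in mTEClo, 41.9% at 0 h and 50.7% at 1.5 h. No paired analysis was possible because each group has 1 library and the groups compared share fewer than 2 replicate numbers. The 12 h library, with 1746825 reads, limits every value at that time.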

Other observations

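Most entries of microRNA genes had no reads in these libraries of polyadenylated RNA, and a few had many. The files of the pairs list 789 entries of microRNA genes, and those of the actinomycin D series none. The entries were picked by symbol, and host genes named after a microRNA count among them. Of the 789, 182 had at least 1 read with the label Aire-KO and 135 in WT, and 231 in mTEChi against 217 in mTEClo. These counts depend on depth, which was 143001134 reads with the label Aire-KO and 104316348 in WT, and 195444567 in mTEChi against 74161592 in mTEClo. The 4 entries with the highest mean were Mir5107, Mir686, Mir147 and Mir682. Mir147 had 1075 reads with the label Aire-KO and 4083 in WT, a fold of 0.225 (0.210 to 0.241), and 3468 in mTEChi against 547 in mTEClo, a fold of 2.29 (2.09 to 2.51). Mir682 had 3912 reads with the label Aire-KO and 1185 in WT, a fold of 2.82 (2.65 to 3.02), and 2597 in mTEChi against 1199 in mTEClo, a fold of 0.782 (0.730 to 0.838).

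Mir5107 had folds of 1.31 in the Aire pair and 2.77 in the sorted pair, and Mir686 of 1.11 and 1.38. In the annotation of mm9 all bases of Mir147 lie in exons of AA467197, those of Mir686 in Psmb5 and those of Mir682 in the pseudogene Gm4149, each on the same strand, so reads of the hairpin and of the host transcript cannot be told apart. The annotation used here gave no position for Mir5107.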
